A study of Mus musculus with 10 samples.

Results

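Transcripts of 10 heat shock chaperone genes were measured in myeloid cells of tumor-bearing mice with and without a deletion of the phosphatase SHP-2. The genes were Hspa1a, Hspa1b, Hspa8, Dnajb1, Dnaja1, Hsph1, Hsp90aa1, Hsp90ab1, Hspd1 and Hspe1, which is 10 of the 55421 genes in the deposited count table. They were chosen by family from the HSP70, HSP90, HSP40, HSP110, HSP60 and HSP10 chaperones, at a time when the higher level of Hspa1a in tumor macrophages lacking SHP-2 was already known from these counts. The genotype difference in tumor macrophages, and any contrast that contains it, is therefore given for these genes as a description only. All 10 were found by their Ensembl identifier, and all 10 passed the filter on low counts in every comparison, with the smallest value, 190 counts, belonging to Hspa1b in an MDSC library. The products of 8 of them work in the cytosol and nucleus, while those of Hspd1 and Hspe1 work in the mitochondrial matrix.

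Myeloid-derived suppressor cells (MDSC), immature myeloid cells that expand in tumor-bearing animals, were isolated from spleen with magnetic beads as GR1hiLy6G+Ly6C- cells, and tumor-associated macrophages (TAM) were sorted from collagenase-digested tumors as CD45+CD11b+F4/80+Ly6G- live cells. All mice carried floxed alleles of Ptpn11, the gene of SHP-2. Shp2f/f mice had no Cre, and Shp2f/fLysMcre mice also expressed Cre from the lysozyme M promoter, which is active in macrophages and granulocytes alike. There were 2 MDSC libraries and 3 TAM libraries of each genotype, all from mice that were 8 to 12 weeks old at implantation, bore MC17-51 fibrosarcomas and were examined at day 15. MDSC and TAM came from the same mice, but which libraries share a mouse, or a pool of mice, was not stated, so the cell type comparisons and the interaction treat as independent libraries that may share animals. The p-values therefore measure the spread between these libraries, part of which may be technical.

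Chaperones of the HSP70 family bind unfolded stretches of other proteins and release them in cycles of ATP hydrolysis, which HSP40 proteins start and HSP110 proteins renew by exchanging the nucleotide. HSP90 takes over partly folded clients, among them kinases and steroid receptors, and HSP60 with its lid HSP10 folds proteins inside mitochondria. Some of these genes are transcribed at all times, while others, Hspa1a and Hspa1b above all, are held low in unstressed cells and are induced by heat shock factor 1, which binds repeated units of the letters GAA and their complement TTC. In sorted cells, enzymatic digestion of the tissue is also known to induce this inducible pair together with immediate early genes.

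Total counts were between 28844660 and 38222998 per library. Levels are given as counts per 1000000 (CPM) after TMM scaling over all 10 libraries, except where CPM of the total count is named. Adjusted p-values come from the quasi-likelihood (QL) test of edgeR with Benjamini-Hochberg (BH) adjustment over all genes tested. Ptpn11 checked the labels: it was at 121, 125 and 121 CPM in TAM Shp2f/f and at 50.9, 54.2 and 53.8 CPM in TAM Shp2f/fLysMcre, with no overlap (log2 fold change -1.24, SE 0.0386, edgeR QL adjusted p = 2.96e-09). In MDSC it was at 113 and 99.2 against 94.8 and 79.6 CPM, a step in the same direction that did not pass (log2 fold change -0.29, SE 0.143, edgeR QL adjusted p = 0.361). A loss of SHP-2 in MDSC is therefore not shown by these counts. The words lacking SHP-2 and without SHP-2 name the genotype Shp2f/fLysMcre throughout, and the counts do not give the SHP-2 protein left. Ly6g, the marker of granulocytic MDSC, was at 9.20 to 12.3 CPM of the total count in MDSC Shp2f/f and at 32.5 to 34.1 CPM in MDSC Shp2f/fLysMcre. The macrophage receptor gene Csf1r was at 1126 to 1487 CPM in MDSC and at 1454 to 1554 CPM in TAM. TAM had C1qa at 1232 to 2036 CPM and Ly6g at no more than 0.288 CPM. Libraries spread more in MDSC than in TAM (biological coefficient of variation 0.189 and 0.0595). In MDSC Shp2f/fLysMcre 2, a library that stood apart, 9 fibroblast and tumor matrix genes summed to 654 CPM of the total count, against 15.8 to 35.4 CPM in the other 3 MDSC libraries. In TAM Shp2f/f, 8 pancreatic islet genes summed to 885 to 6939 CPM, highest in TAM Shp2f/f 3, against 6.08 to 78.1 CPM in TAM Shp2f/fLysMcre. Xist, transcribed from the inactive X chromosome of female cells, was at 4.84 to 18.5 CPM of the total count in TAM Shp2f/f and at 192 to 350.4 CPM in TAM Shp2f/fLysMcre. In MDSC it was at 0.0298 to 0.0301 and at 130.2 to 136 CPM in the same order, so a marker of sex also went with genotype. Summed over 12 genes each, macrophage markers were at 13907 to 14390.4 CPM of the total count in TAM Shp2f/f and 20646 to 22220.2 CPM in TAM Shp2f/fLysMcre, with neutrophil markers at 4387 to 4604 and 2305 to 2362 CPM. Mmp9 alone made up most of that neutrophil sum, at a mean of 4134 CPM in TAM Shp2f/f and 1858 CPM in TAM Shp2f/fLysMcre. Of the 11 neutrophil markers tested between the TAM genotypes, 5 were called higher in Shp2f/fLysMcre and 1 lower. Over all tested genes, 23.9% were called higher there and 26.3% lower. Neutrophil markers were at 10883 to 11203 CPM in MDSC Shp2f/f and 29941 to 34226 CPM in MDSC Shp2f/fLysMcre, and no marker of either list was at 0 in every library of a group. From Shp2f/f to Shp2f/fLysMcre, 8 T cell markers summed to 13.2 to 15.0 and 6.66 to 6.68 CPM in TAM, 6 B cell markers to 21.8 to 23.2 and 48.4 to 51.9 CPM in TAM, and 8 erythroid markers to 225 to 256 and 427 to 629.8 CPM in MDSC. Cd22 alone made up most of the B cell sum, at a mean of 18.3 CPM in TAM Shp2f/f and 40.1 CPM in TAM Shp2f/fLysMcre. Of the 4 B cell markers tested between the TAM genotypes, 2 were called higher, none lower and 2 were not called. The part of these marker genes and of islet transcripts in the genotype differences below was not tested. Since Xist went with genotype in both cell types, the part of sex cannot be told apart from that of genotype.

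The inducible HSP70 genes Hspa1a (ENSMUSG00000091971) and Hspa1b (ENSMUSG00000090877) are intronless neighbors on the minus strand of chromosome 17 in GRCm38, at 34969190 to 34972156 and at 34956436 to 34959238, with 9951 bases between them. Their upstream sequences are shown because this pair had the largest differences of the 10 genes in TAM and because the stretches, from base -150 to base -1 before the RefSeq start site (GRCm38.p6, minus strand, chr17:34972157-34972306 for Hspa1a and chr17:34959239-34959388 for Hspa1b), are identical at 149 of 150 bases. Capitals mark the GAA and TTC units of the arrangement GAANNTTC, which spans base -104 to base -97 in both.
Hspa1a: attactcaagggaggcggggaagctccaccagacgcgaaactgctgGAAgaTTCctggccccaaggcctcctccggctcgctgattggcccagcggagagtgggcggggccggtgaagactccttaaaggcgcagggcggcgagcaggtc
Hspa1b: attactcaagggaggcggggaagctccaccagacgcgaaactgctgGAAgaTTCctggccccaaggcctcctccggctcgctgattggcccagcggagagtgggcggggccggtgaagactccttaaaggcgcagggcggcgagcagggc

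Both arrangements of neighboring units, GAANNTTC and TTCNNGAA, read the same on either strand and can overlap by sharing a unit. They were searched in RefSeq promoter windows of 250 bases before to 50 bases after each start site, and 12 windows were found for 7 of the 10 genes. Among all 32851 windows of the same length, 7.86% held GAANNTTC, 8.52% held TTCNNGAA, 15.1% held either and 0.603% held 3 alternating units at that spacing. Hspd1 and Hspe1, which share 1 promoter region and are transcribed away from each other, had a run of overlapping matches from base -89 to base -72 before the start of Hspe1. Dnaja1 had GAANNTTC at base -124 to base -117 before a start site, and Hsph1 had TTCNNGAA at base -54 to base -47. Hsph1 also had a run of 3 units 15 to 27 bases after that start site, which lies outside the stretch printed here. Neither arrangement was in the 2 windows of Dnajb1, and no window was read for Hspa8, Hsp90aa1 and Hsp90ab1. The stretches that hold the matches before the start sites, again with the units in capitals, are given for comparison with the single pair of units of Hspa1a (GRCm38.p6, plus strand chr1:55088053-55088082 for Hspe1, plus strand chr4:40722333-40722362 for Dnaja1 and minus strand chr5:149636351-149636380 for Hsph1). A match describes letters and is not evidence of binding.
Hspe1: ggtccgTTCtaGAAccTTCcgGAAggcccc
Dnaja1: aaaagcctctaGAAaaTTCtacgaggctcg
Hsph1: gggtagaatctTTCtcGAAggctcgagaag

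Hspa1a was the gene with the widest range of the 10. It was at 8.45 and 7.85 CPM in MDSC Shp2f/f, at 6.80 and 11.5 CPM in MDSC Shp2f/fLysMcre, at 14.1, 17.2 and 14.9 CPM in TAM Shp2f/f and at 62.1, 60.8 and 55.2 CPM in TAM Shp2f/fLysMcre. The MDSC genotypes overlapped, both TAM groups lay above all MDSC libraries, and the 3 TAM libraries lacking SHP-2 stood far above the other 7. The means were 59.4 ± 3.63 CPM (SD, n = 3) in TAM Shp2f/fLysMcre and 15.4 ± 1.6 CPM (SD, n = 3) in TAM Shp2f/f. The fit of the 6 TAM libraries, which has its own scaling, gave a 3.75-fold difference, a log2 fold change of 1.91 (SE 0.0692). In MDSC the log2 fold change was 0.16 (SE 0.266), which did not pass (edgeR QL adjusted p = 0.819), and it turned to -0.26 without MDSC Shp2f/fLysMcre 2, the library with matrix transcripts. Hspa1a was 1.89-fold higher in TAM than in MDSC of Shp2f/f mice (log2 fold change 0.92, SE 0.0989, edgeR QL adjusted p = 1.76e-05) and 6.49-fold higher in those of Shp2f/fLysMcre mice (log2 fold change 2.7, SE 0.229, edgeR QL adjusted p = 0.000218), although the second value rests on the libraries whose high level was known. In bulk RNA, a change in the number of cells that express a gene and a change in RNA per cell cannot be told apart, and cell type here goes with tissue and isolation method.

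Hspa1b had the same order of groups at a lower level. It was at 6.21 and 5.48 CPM in MDSC Shp2f/f, at 6.88 and 7.06 CPM in MDSC Shp2f/fLysMcre, at 10.6, 13.5 and 12.5 CPM in TAM Shp2f/f and at 27.4, 29.01 and 31.6 CPM in TAM Shp2f/fLysMcre. No neighboring groups in that order overlapped, but the step between the MDSC genotypes was small, at 0.25 on the log2 scale (SE 0.172, edgeR QL adjusted p = 0.526). In TAM the genotypes differed 2.34-fold, a log2 fold change of 1.23 (SE 0.0838). Hspa1b was 2.08-fold higher in TAM than in MDSC of Shp2f/f mice (edgeR QL adjusted p = 2.6e-05) and 4.23-fold higher in Shp2f/fLysMcre mice (edgeR QL adjusted p = 3.38e-05). The second value rests on the TAM libraries whose high level of Hspa1a was known, and it is a description. Hspa1a had 1.20 to 1.34 counts for each count of Hspa1b in TAM Shp2f/f and 1.75 to 2.26 in TAM Shp2f/fLysMcre. The pair is hard to separate with 42-base reads, since 67.98% of the 42-base windows in Hspa1a transcripts and 64.55% of those in Hspa1b transcripts also occurred in transcripts of other genes, 1780 of them shared by the pair. With the counts of the pair summed, the log2 fold change between the TAM genotypes was 1.65 (SE 0.0630), and that of TAM over MDSC in Shp2f/f was 0.98 (SE 0.0958).

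Hspa8 (ENSMUSG00000015656, chromosome 9, 40800984 to 40810087, plus strand), the constitutive HSP70 of the cytosol, moved the other way between the TAM genotypes. It was at 1516 and 1625 CPM in MDSC Shp2f/f, at 1563 and 1462 CPM in MDSC Shp2f/fLysMcre, at 1984, 2061 and 1956 CPM in TAM Shp2f/f and at 1793, 1791 and 1694 CPM in TAM Shp2f/fLysMcre. The MDSC genotypes overlapped, and the TAM genotypes did not, with the higher values in Shp2f/f. The log2 fold change was -0.22 (SE 0.0314) between the TAM genotypes and -0.06 (SE 0.122, edgeR QL adjusted p = 0.861) between the MDSC genotypes. TAM exceeded MDSC 1.27-fold in Shp2f/f (edgeR QL adjusted p = 8.46e-05) and 1.17-fold in Shp2f/fLysMcre, where the call was near the threshold (edgeR QL adjusted p = 0.0408). Of its 42-base windows, 41.48% occurred in other transcripts, mainly of processed pseudogenes such as Gm15459, which had 1817 counts over the 10 libraries against 604437 for Hspa8. Per kilobase of exon, Hspa1a and Hspa1b together made up 1.82% to 2.17% of the CPM of the 3 HSP70 genes in TAM Shp2f/f and 6.86% to 7.05% in TAM Shp2f/fLysMcre, against 1.20% to 1.85% over the 4 MDSC libraries. The pair has more shared windows than Hspa8, at 67.98% and 64.55%. How reads from shared windows were counted was not stated, so the size of these shares is uncertain.

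**Figure D1:**
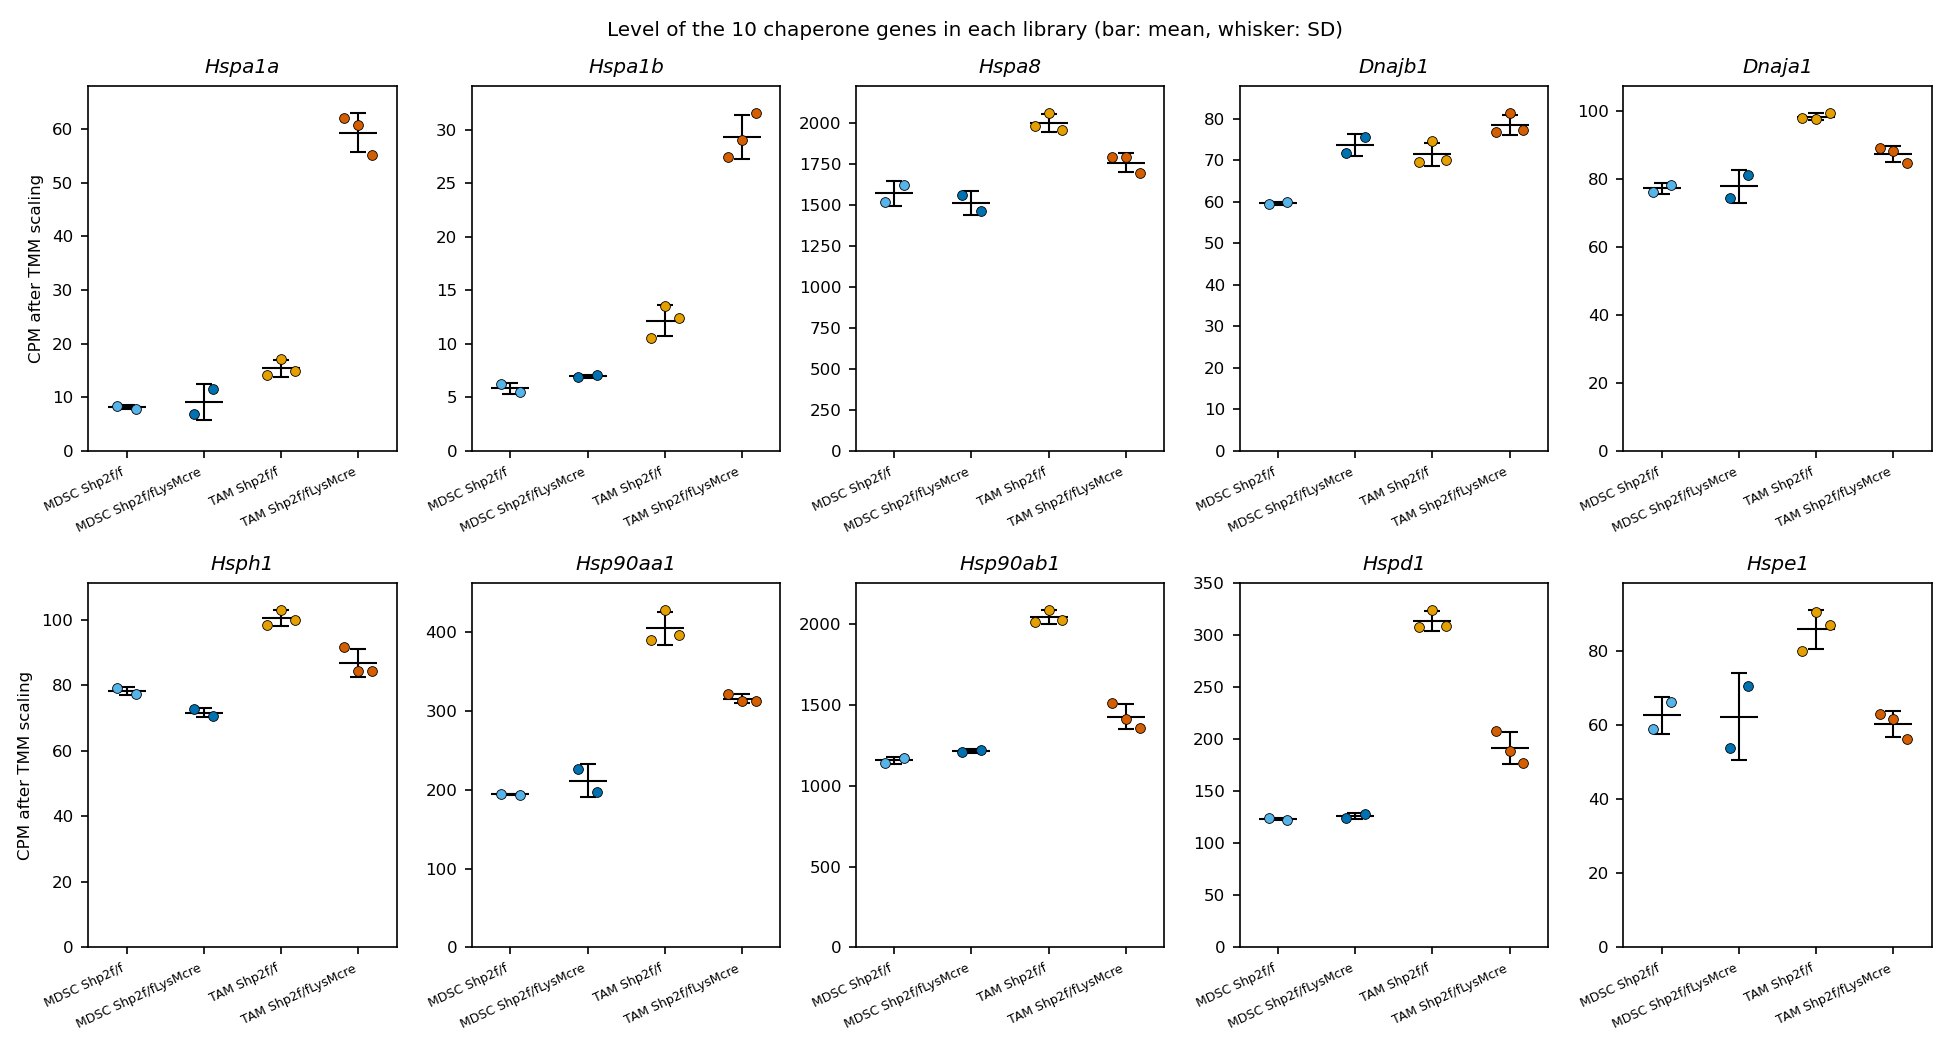
Level of each chaperone gene in each of the 10 libraries, as CPM after TMM scaling on an axis that starts at 0 (points, libraries; bars, mean; whiskers, SD; n = 2 in MDSC and 3 in TAM). Hspa1a and Hspa1b were highest in TAM Shp2f/fLysMcre, at 55.2 to 62.1 and 27.4 to 31.6 CPM, whereas the HSP90, HSP60 and HSP10 genes were highest in TAM Shp2f/f.

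Dnajb1 (ENSMUSG00000005483, chromosome 8, 83608193 to 83612653, plus strand) encodes an HSP40 that works with HSP70 and is itself heat inducible. It was at 59.5 and 59.9 CPM in MDSC Shp2f/f, at 71.8 and 75.6 CPM in MDSC Shp2f/fLysMcre, at 69.7, 74.6 and 70.1 CPM in TAM Shp2f/f and at 76.9, 81.4 and 77.3 CPM in TAM Shp2f/fLysMcre. It was therefore higher in Shp2f/fLysMcre than in Shp2f/f in both cell types with no overlap, yet the differences were small. Its log2 fold change was 0.30 in MDSC (SE 0.0999), the largest of the 10 genes there and the only one with an unadjusted p under 0.05, and it did not pass after adjustment (edgeR QL adjusted p = 0.192). In TAM the log2 fold change of 0.10 (SE 0.0404) was the smallest in size of the 10 genes, and Dnajb1 was the gene of the 10 not called there. With DESeq2 size factors in edgeR it was 0.11 (SE 0.0419) and was called (edgeR QL adjusted p = 0.0409). TAM exceeded MDSC by 0.26 on the log2 scale in Shp2f/f (SE 0.0482, edgeR QL adjusted p = 0.000822) and by 0.10 in Shp2f/fLysMcre (SE 0.0683, edgeR QL adjusted p = 0.25). Only 0.44% of its 42-base windows occurred in other transcripts.

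Dnaja1 (ENSMUSG00000028410, chromosome 4, 40722150 to 40737149, plus strand), another HSP40, and Hsph1 (ENSMUSG00000029657, chromosome 5, 149614287 to 149636376, minus strand), an HSP110 that recharges HSP70 with ATP, resembled Hspa8 rather than the inducible pair. Dnaja1 was at 76.0 and 78.3 CPM in MDSC Shp2f/f, at 74.4 and 81.2 CPM in MDSC Shp2f/fLysMcre, at 97.9, 97.5 and 99.3 CPM in TAM Shp2f/f and at 88.9, 88.1 and 84.6 CPM in TAM Shp2f/fLysMcre. Hsph1 was at 79.1 and 77.3 CPM, at 72.7 and 70.6 CPM, at 98.2, 103 and 100.03 CPM and at 91.6, 84.3 and 84.2 CPM in the same order of groups. Both were lower in TAM lacking SHP-2 with no overlap, by log2 fold changes of -0.21 (SE 0.0356) for Dnaja1 and -0.25 (SE 0.0420) for Hsph1. In MDSC, neither passed, with log2 fold changes of 0.01 for Dnaja1 (SE 0.106, edgeR QL adjusted p = 0.987) and -0.13 for Hsph1 (SE 0.102, edgeR QL adjusted p = 0.58). TAM exceeded MDSC of Shp2f/f mice 1.27-fold for Dnaja1 and 1.28-fold for Hsph1 (edgeR QL adjusted p = 5.34e-05 and 4.86e-05). In Shp2f/fLysMcre mice, Hsph1 still passed at 1.22-fold (edgeR QL adjusted p = 0.0161), and Dnaja1 at 1.13-fold did not (edgeR QL adjusted p = 0.0793). Dnaja1 overlaps Smu1 on the opposite strand, which had 33418 counts over the 10 libraries, and the strand setting of the counting was not stated, whereas no 42-base window of Hsph1 occurred in another gene's transcripts.

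The HSP90 genes had larger differences between the cell types. Hsp90aa1 (ENSMUSG00000021270, chromosome 12, 110690605 to 110702728, minus strand), the more stress-responsive paralog, was at 195 and 194 CPM in MDSC Shp2f/f, at 227 and 197 CPM in MDSC Shp2f/fLysMcre, at 389.9, 429 and 397 CPM in TAM Shp2f/f and at 322, 313 and 312 CPM in TAM Shp2f/fLysMcre. Hsp90ab1 (ENSMUSG00000023944, chromosome 17, 45567775 to 45573271, minus strand), the constitutive paralog, was at 1142 and 1173 CPM, at 1209.8 and 1225 CPM, at 2015, 2092 and 2029 CPM and at 1511, 1417 and 1356 CPM in the same groups. In both genes every TAM library exceeded every MDSC library and the 3 TAM Shp2f/f libraries were the highest of all. TAM exceeded MDSC of Shp2f/f mice 2.08-fold for Hsp90aa1 (log2 fold change 1.05, SE 0.0531, edgeR QL adjusted p = 6.99e-08) and 1.76-fold for Hsp90ab1 (log2 fold change 0.82, SE 0.0422, edgeR QL adjusted p = 8.42e-08). In Shp2f/fLysMcre mice the ratios were 1.5 (edgeR QL adjusted p = 0.00208) and 1.18 (edgeR QL adjusted p = 0.0373). Between the TAM genotypes the log2 fold changes were -0.39 (SE 0.0421) for Hsp90aa1 and -0.55 (SE 0.0385) for Hsp90ab1, and in MDSC they were 0.12 (SE 0.127, edgeR QL adjusted p = 0.704) and 0.07 (SE 0.113, edgeR QL adjusted p = 0.823). Hsp90aa1 made up 12.9% to 13.5% of the CPM per kilobase of this pair in TAM Shp2f/f, 14.0% to 14.9% in TAM Shp2f/fLysMcre and 10.9% to 12.5% in MDSC. Shared 42-base windows were 48.97% for Hsp90aa1 and 5.68% for Hsp90ab1.

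The mitochondrial chaperonin genes Hspd1 (ENSMUSG00000025980, chromosome 1, 55077835 to 55088243, minus strand) and Hspe1 (ENSMUSG00000073676, chromosome 1, 55088132 to 55091307, plus strand) encode HSP60 and HSP10, and they overlap at their starts on opposite strands. Hspd1 was at 124 and 123 CPM in MDSC Shp2f/f, at 124 and 128 CPM in MDSC Shp2f/fLysMcre, at 308, 325 and 309 CPM in TAM Shp2f/f and at 208, 189 and 177 CPM in TAM Shp2f/fLysMcre. The 4 MDSC libraries lay within a narrow band, and the TAM genotypes were separated by a wide gap. Hspe1 was at 59.1 and 66.3 CPM, at 54.0 and 70.8 CPM, at 80.0, 90.6 and 87.2 CPM and at 63.0, 61.6 and 56.3 CPM in the same groups, so that only TAM Shp2f/f stood above the rest. Between the TAM genotypes Hspd1 was 1.68-fold lower without SHP-2 (log2 fold change -0.75, SE 0.0538) and Hspe1 was 1.46-fold lower (log2 fold change -0.55, SE 0.0536). In MDSC the log2 fold changes were 0.03 for Hspd1 (SE 0.105, edgeR QL adjusted p = 0.934) and -0.01 for Hspe1 (SE 0.156, edgeR QL adjusted p = 0.977). Hspd1 had the largest difference of the 10 genes between the cell types of Shp2f/f mice, 2.54-fold (log2 fold change 1.34, SE 0.0475, edgeR QL adjusted p = 5.26e-09), and Hspe1 differed 1.37-fold (log2 fold change 0.45, SE 0.0662, edgeR QL adjusted p = 0.000159). In Shp2f/fLysMcre mice, Hspd1 differed 1.53-fold (edgeR QL adjusted p = 0.00167), while Hspe1 differed by -0.04 on the log2 scale (SE 0.125, edgeR QL adjusted p = 0.782). Per kilobase, the ratio of Hspd1 to Hspe1 was 1.98 to 2.14 in TAM Shp2f/f, 1.71 to 1.84 in TAM Shp2f/fLysMcre and 1.01 to 1.28 in MDSC, although 45.87% of the 42-base windows of Hspd1 and 25.68% of those of Hspe1 occurred in other transcripts.

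**Figure D2:**
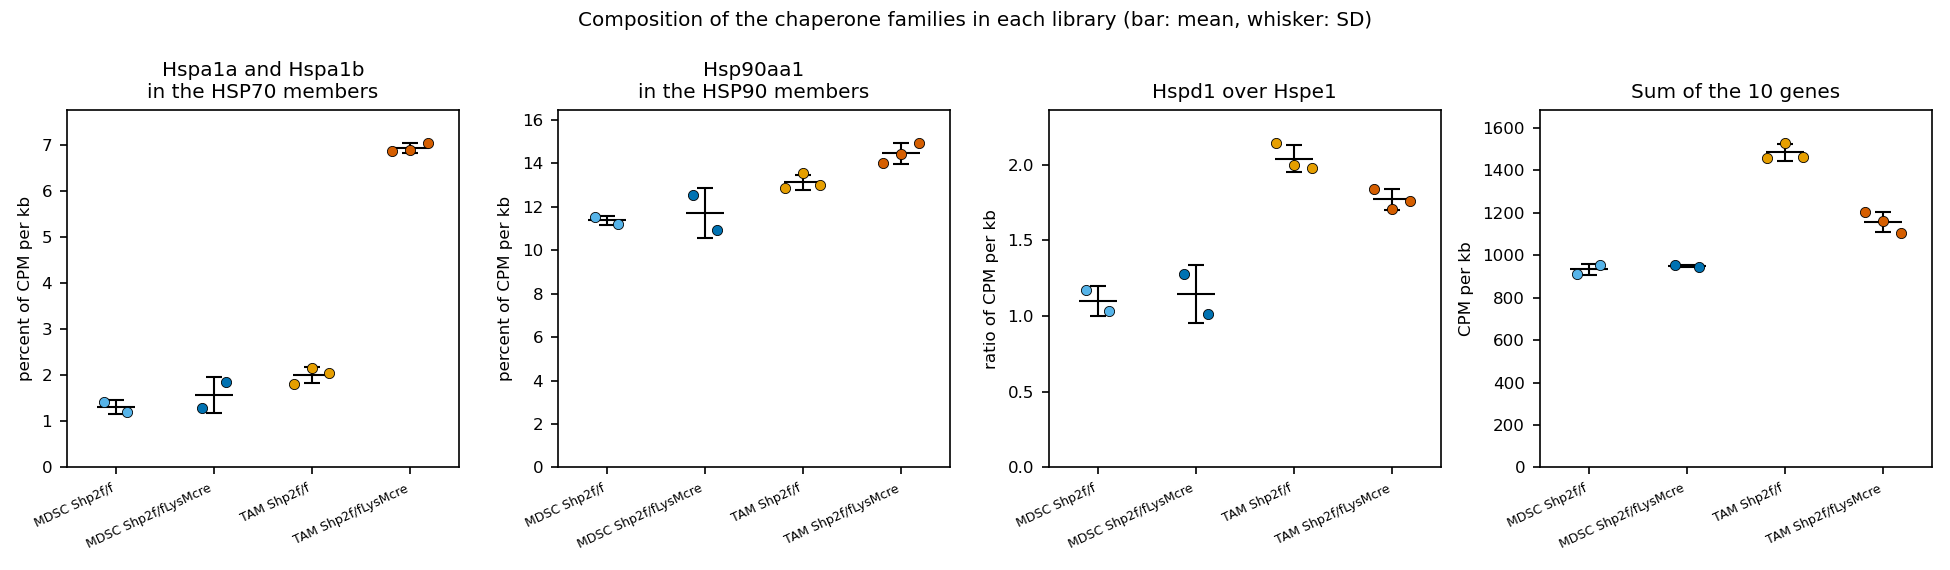
Composition of the chaperone families in each library from CPM per kilobase of exon (points, libraries; bars, mean; whiskers, SD), as the share of Hspa1a and Hspa1b in the HSP70 genes, the share of Hsp90aa1 in the HSP90 genes, the ratio of Hspd1 to Hspe1 and the sum of all 10 genes. The inducible share was 6.86% to 7.05% in TAM Shp2f/fLysMcre and at most 2.17% in the other libraries, while the sum of the 10 genes was highest in TAM Shp2f/f, at 1458 to 1529.7 CPM per kilobase.

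Ordered by level per kilobase of exon, Hsp90ab1 and Hspa8 led in every group, at 386 and 365 CPM per kilobase in MDSC Shp2f/f and at 682 and 465 CPM per kilobase in TAM Shp2f/f. Only 0.258% of the protein-coding genes with a count lay above Hsp90ab1 in TAM Shp2f/f and 0.448% above Hspa8. Hsp90aa1, Hspd1 and Hspe1 followed at 40.9 to 119 CPM per kilobase over the 4 groups, then Dnajb1 at 18.6 to 24.5, Hsph1 at 9.86 to 13.8 and Dnaja1 at 8.94 to 11.4 CPM per kilobase. In 3 groups Hspa1a and Hspa1b were the lowest, at 2.09 to 5.20 CPM per kilobase, but in TAM Shp2f/fLysMcre Hspa1a reached 20.0 CPM per kilobase, above Hsph1 at 11.9 and Dnaja1 at 10.1. That last order depends on the merged exon length, 2967 bases for Hspa1a, 7266 for Hsph1 and 8629 for Dnaja1. Before division by length, Hspa1a averaged 59.4 CPM there, below Hsph1 at 86.7 and Dnaja1 at 87.2 CPM. The share of protein-coding genes above Hspa1a was 51.9% in MDSC Shp2f/f, 48.1% in MDSC Shp2f/fLysMcre, 39.8% in TAM Shp2f/f and 16.4% in TAM Shp2f/fLysMcre. The sum of the 10 genes per kilobase was 913 to 953 CPM in MDSC Shp2f/f, 944 to 954 in MDSC Shp2f/fLysMcre, 1458 to 1529.7 in TAM Shp2f/f and 1106 to 1202 in TAM Shp2f/fLysMcre, so both genotypes of TAM lay above MDSC and TAM lacking SHP-2 lay between.

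The comparisons were then read over all 10 genes against the share of all tested genes that passed, with a gene called at a BH-adjusted p under 0.05 in the edgeR quasi-likelihood test. Between the MDSC genotypes none of the 10 was called by edgeR or by the DESeq2 Wald test, and 1 had an unadjusted p under 0.05, while 3.76% of 14806 tested genes were called higher and 0.520% lower. Ptpn11 was not called between these genotypes either, so a loss of SHP-2 in MDSC is not shown by these counts. The libraries of the MDSC genotypes did not overlap for 5 of the 10 genes, against 48.9% of all tested genes. The median log2 fold change of the 10 was 0.05, against -0.01 over all tested genes. Between the TAM genotypes, where Hspa1a helped to choose the list, 2 of the 10 were called higher, 7 lower and 1 was not called, beside 23.9% of 14446 tested genes called higher and 26.3% lower. No gene of the 10 had overlapping TAM genotypes, beside 57.9% of all tested genes without overlap, and their median log2 fold change was -0.23 against -0.01 over all tested genes. Nothing is drawn from these TAM counts, which rest on the contrast that chose the genes. Scaling by total counts gave the same 2 higher and 7 lower, and it moved the split of all TAM calls from 47.6% higher and 52.4% lower to 30.9% and 69.1%, with a shift of the median of all genes to -0.11. DESeq2 size factors in edgeR gave 3 higher and 7 lower, since Dnajb1 was then called as well.

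In Shp2f/f mice all 10 genes were called higher in TAM than in MDSC, against 40.0% of 15659 tested genes called higher and 38.8% lower. Their median log2 fold change was 0.64, and that of all tested genes was 0.01. In Shp2f/fLysMcre mice 7 were called higher and none lower, with Dnaja1, Dnajb1 and Hspe1 not called, against 29.8% of 15741 tested genes higher and 33.7% lower. The calls of Hspa1a and Hspa1b among these 7 are a description, since the high Hspa1a level of these TAM libraries was known. The median log2 fold change of the 10 genes was 0.26 there, against -0.05 over all tested genes. The calls in Shp2f/fLysMcre mice depended on the settings, since 4 of the 7 remained with scaling by total counts, with the replicate block and with limma voom weights per cell type, and those were Hspa1a, Hspa1b, Hsp90aa1 and Hspd1 in each. Total count scaling lowered the median of all genes there to -0.26 and that of the 10 genes to 0.054. With it, Dnajb1 turned to -0.11 and Dnaja1 to -0.035 on the log2 scale. The split of all calls in Shp2f/fLysMcre mice moved from 46.9% higher and 53.1% lower to 36.0% and 64.0% under that scaling.

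**Figure D3:**
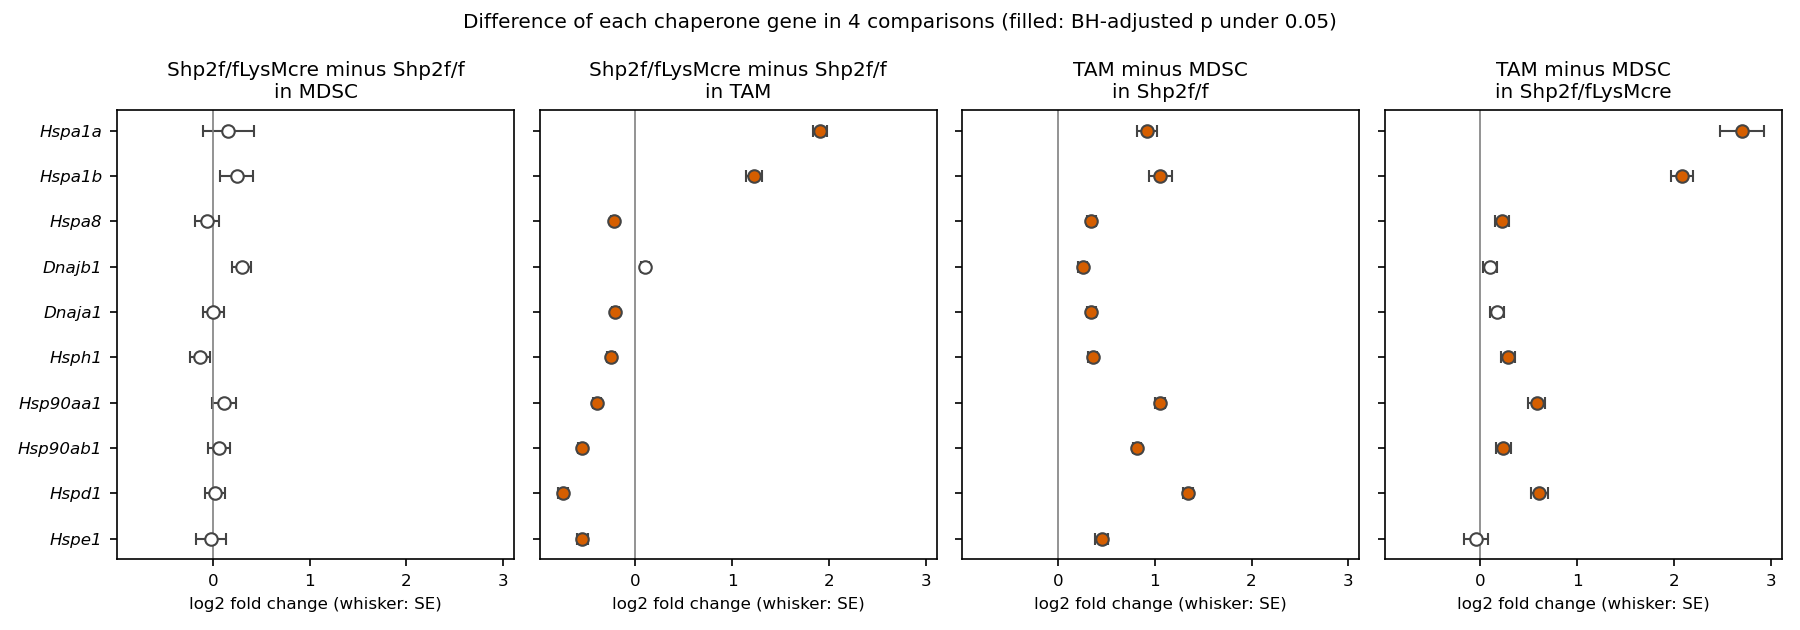
Log2 fold change of each chaperone gene in the 4 comparisons, with whiskers of 1 SE and filled points for a BH-adjusted p under 0.05 in the edgeR quasi-likelihood test. All 10 genes were higher in TAM than in MDSC of Shp2f/f mice, from 0.26 for Dnajb1 to 1.34 for Hspd1. The filled points of the TAM genotype panel are a description, since Hspa1a at 1.91 helped to choose the genes. So are those of Hspa1a and Hspa1b between the cell types of Shp2f/fLysMcre mice.

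The genotype effect in TAM minus that in MDSC was estimated from all 10 libraries, and it contains the TAM contrast that chose the genes, so it is also a description. By the same threshold, 2 of the 10 genes had a higher effect in TAM, Hspa1a at 1.77 (SE 0.259) and Hspa1b at 1.01 (SE 0.165) on the log2 scale. In 4 genes the effect was lower in TAM, Hspd1 at -0.75 (SE 0.0999), Hsp90ab1 at -0.59 (SE 0.0875), Hspe1 at -0.51 (SE 0.159) and Hsp90aa1 at -0.48 (SE 0.102). Hspe1 kept its call in 1 of 10 fits with a library left out. The other 4 were not called, at -0.18 for Dnaja1, -0.17 for Dnajb1, -0.13 for Hspa8 and -0.09 for Hsph1. Of 16581 tested genes, 12.2% were called higher and 12.7% lower. Total count scaling shifted the median of all genes to -0.18, called 8 of the 10 lower and moved the split of all calls from 49.1% higher and 50.9% lower to 28.3% and 71.7%.

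Further parts of the cytosolic folding machinery were read from a list of 39 chaperones and co-chaperones that left out the 10 genes. The list also held Serpinh1, whose product works in the endoplasmic reticulum and not in the cytosol. This list and those below were written with earlier results of these data known, so their calls are a description. Of all tested genes, 23.9% were called higher and 26.3% lower between the TAM genotypes. Among the 39 genes, 8 were called higher there, 16 lower and 15 were not called, with a median log2 fold change of -0.11. The largest differences at 10 CPM or more were in the HSP90 partners Fkbp4 at -0.81 (SE 0.0568) and Ppid at -0.61 (SE 0.0466) and in the HSP40 gene Dnajb5 at 0.62 (SE 0.0842), with edgeR QL adjusted p of 6.95e-07, 1.25e-06 and 9.81e-05. Hspa1l, the third HSP70 gene of the Hspa1a locus, was named after its values were seen: it had 446 counts over all libraries and 273 windows in common with Hspa1a, and its log2 fold change was 1.41 (SE 0.212, edgeR QL adjusted p = 0.000215). Between the MDSC genotypes 1 of the 37 tested genes was called higher and none lower, against 3.76% and 0.520% of all tested genes. It was Dnaja4, an HSP40 gene also named after its values were seen, at 1.30 (SE 0.227, edgeR QL adjusted p = 0.043). In Shp2f/f mice 25 of the 39 were higher in TAM than in MDSC and 7 lower, with a median of 0.37, led by the collagen chaperone gene Serpinh1 at 6.92 (SE 0.117), Dnajb2 at 1.28 (SE 0.0902) and the HSP70 partner St13 at 1.07 (SE 0.0609), with edgeR QL adjusted p of at most 8.21e-07. In Shp2f/fLysMcre mice 16 were higher and 6 lower with a median of 0.31, led by St13 at 1.21 (SE 0.104), the HSP90 partner Fkbp5 at -1.09 (SE 0.103) and Dnajb5 at 0.94 (SE 0.116), with edgeR QL adjusted p of at most 0.000959. In the difference of the genotype effects 4 were higher and 9 lower, led by Serpinh1 at -6.62 (SE 1.87), Fkbp4 at -0.87 (SE 0.108) and Dnajb5 at 0.75 (SE 0.152), with edgeR QL adjusted p of at most 0.0286. Of all tested genes, 40.0% were called higher and 38.8% lower in TAM than in MDSC of Shp2f/f mice. The shares were 29.8% and 33.7% in Shp2f/fLysMcre mice and 12.2% and 12.7% in the difference of the genotype effects. Serpinh1 is a gene of matrix-producing cells, and the part of the matrix transcripts of MDSC Shp2f/fLysMcre 2 in its value was not tested.

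The cytosolic complexes TRiC/CCT and prefoldin, and chaperones of other compartments, were compared with Hspd1, Hspe1 and the cytosolic genes above. All 8 TRiC/CCT genes, subunits of the cytosolic chaperonin that folds actin and tubulin, were called lower in TAM lacking SHP-2, with a median log2 fold change of -0.46, led by Cct6a at -0.72 (SE 0.0476), Cct3 at -0.62 (SE 0.0427) and Cct7 at -0.48 (SE 0.0492). Of 13 mitochondrial chaperone and protease genes other than Hspd1 and Hspe1, 10 were lower there and none higher, with a median of -0.33 and with Trap1, the mitochondrial HSP90, at -0.48 (SE 0.0391), Hspa9, the mitochondrial HSP70, at -0.42 (SE 0.0494) and Dnaja3 at -0.41 (SE 0.0462). Prefoldin, which delivers clients to TRiC, had 4 of 6 genes lower and none higher, and 16 endoplasmic reticulum chaperones had 9 lower and 1 higher, the HSP40 gene Dnajb9 at 0.33 (SE 0.0587). These named genes had edgeR QL adjusted p of at most 0.000786. Over all tested genes, 23.9% were called higher and 26.3% lower between the TAM genotypes, and 3.76% and 0.520% between the MDSC genotypes. Between the MDSC genotypes none of these 43 genes was called by edgeR, while 13 had an unadjusted p under 0.05 and the DESeq2 Wald test called 8, of which 7 were of the endoplasmic reticulum. In Shp2f/f mice, TAM exceeded MDSC for 7 of 8 TRiC/CCT genes and for 9 of 13 mitochondrial genes, with Hspa9 at 1.6 (SE 0.0485), close in size to Hspd1, whereas 9 of 16 endoplasmic reticulum genes were lower in TAM and 5 higher. In Shp2f/fLysMcre mice the counts higher and lower in TAM were 2 and 1 for TRiC/CCT, 7 and 2 for the mitochondrial genes, 0 and 2 for prefoldin and 6 and 4 for the endoplasmic reticulum. Of all tested genes, 40.0% were higher and 38.8% lower in TAM of Shp2f/f mice, and 29.8% and 33.7% in Shp2f/fLysMcre mice.

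Transcripts of the heat shock factors did not follow the inducible pair. Hsf1, the main inducer of Hspa1a, was at 43.4 ± 0.522 CPM in TAM Shp2f/f and 37.3 ± 1.85 CPM in TAM Shp2f/fLysMcre (SD, n = 3 each), lower by a log2 fold change of -0.25 (SE 0.0463, edgeR QL adjusted p = 0.000853), in the direction opposite to that of Hspa1a. Hsf2 was lower by -0.26 (SE 0.0572, edgeR QL adjusted p = 0.00319), and Hsbp1, which encodes a small binding protein of heat shock factor 1, was higher by 0.38 (SE 0.0582, edgeR QL adjusted p = 0.000233). Hsf4 at 0.56 (SE 0.291) and Hsf2bp at 0.09 (SE 0.183) did not pass and were below 2 CPM, and Hsf5 was not tested. None of the 4 genes tested in MDSC was called between the genotypes by edgeR or DESeq2, and 0 had an unadjusted p under 0.05, at 0.72 for Hsf4, -0.16 for Hsf2, -0.08 for Hsf1 and -0.08 for Hsbp1 on the log2 scale. Over all tested genes, edgeR called 3.76% higher and 0.520% lower in MDSC. Between the cell types Hsf1 and Hsf2 did not pass in either genotype, with log2 fold changes of 0.06 and 0.00 in Shp2f/f and of -0.08 and -0.06 in Shp2f/fLysMcre. Hsbp1 was higher in TAM by 0.30 in Shp2f/f and 0.80 in Shp2f/fLysMcre, with Hsf2bp at 2.74 and 3.03 and Hsf4 at 1.69 and 1.57, all called. Their levels say nothing of heat shock factor activity, which is set after translation.

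Immediate early genes moved with the inducible HSP70 pair in TAM. The lists read here were written with earlier results of these data known, so their calls are a description. Between the TAM genotypes, 23.9% of all tested genes were called higher and 26.3% lower. Of 19 immediate early genes that tissue dissociation is known to induce, 19 were called higher in TAM lacking SHP-2, with a median log2 fold change of 0.85, led by Klf2 at 2.01 (SE 0.0493), Atf3 at 1.28 (SE 0.0358) and Jun at 1.28 (SE 0.0407), with edgeR QL adjusted p of at most 3.44e-09. The list summed to 10954 to 11289 CPM of the total count in TAM Shp2f/f and to 18693 to 18912 CPM in TAM Shp2f/fLysMcre, against 7693 to 9252 CPM in the 4 MDSC libraries, which were not digested with collagenase. Hspa1a and Hspa1b thus had the same order of groups for TAM as this list, and the part of dissociation in their levels was not tested. None of the 19 was called between the MDSC genotypes by edgeR, with 3 at an unadjusted p under 0.05 and 3 called by DESeq2. In Shp2f/f mice 9 were higher and 7 lower in TAM than in MDSC, with Klf2 at -1.74 (SE 0.0493) and Egr2 at 4.82 (SE 0.0900). In Shp2f/fLysMcre mice, 17 were higher in TAM and none lower. Between the cell types, 40.0% of all tested genes were higher and 38.8% lower in Shp2f/f, and 29.8% and 33.7% in Shp2f/fLysMcre. Of 11 NRF2 targets, genes of the oxidative stress response, 4 were higher and 1 lower between the TAM genotypes, none in MDSC by edgeR (3 at an unadjusted p under 0.05, 1 by DESeq2), with Hmox1 at 1.37 (SE 0.05), Gclm at 0.43 (SE 0.0645) and Sqstm1 at 0.39 (SE 0.0410) and edgeR QL adjusted p of at most 0.00021. Of 12 proliferation genes, 12 were lower in TAM lacking SHP-2, with Mki67 at -0.95 (SE 0.0363) and a median of -0.79. In MDSC Shp2f/fLysMcre, 11 of the 12 were higher than in MDSC Shp2f/f, together with 6 of 8 erythroid markers. In that MDSC comparison edgeR and DESeq2 called none of the 10 chaperone genes. Over all tested genes edgeR called 3.76% higher and 0.520% lower there, so nothing is drawn from the absence of calls. In TAM the proliferation genes moved with the 7 chaperone genes that were lower, and their part was not tested.

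**Figure D4:**
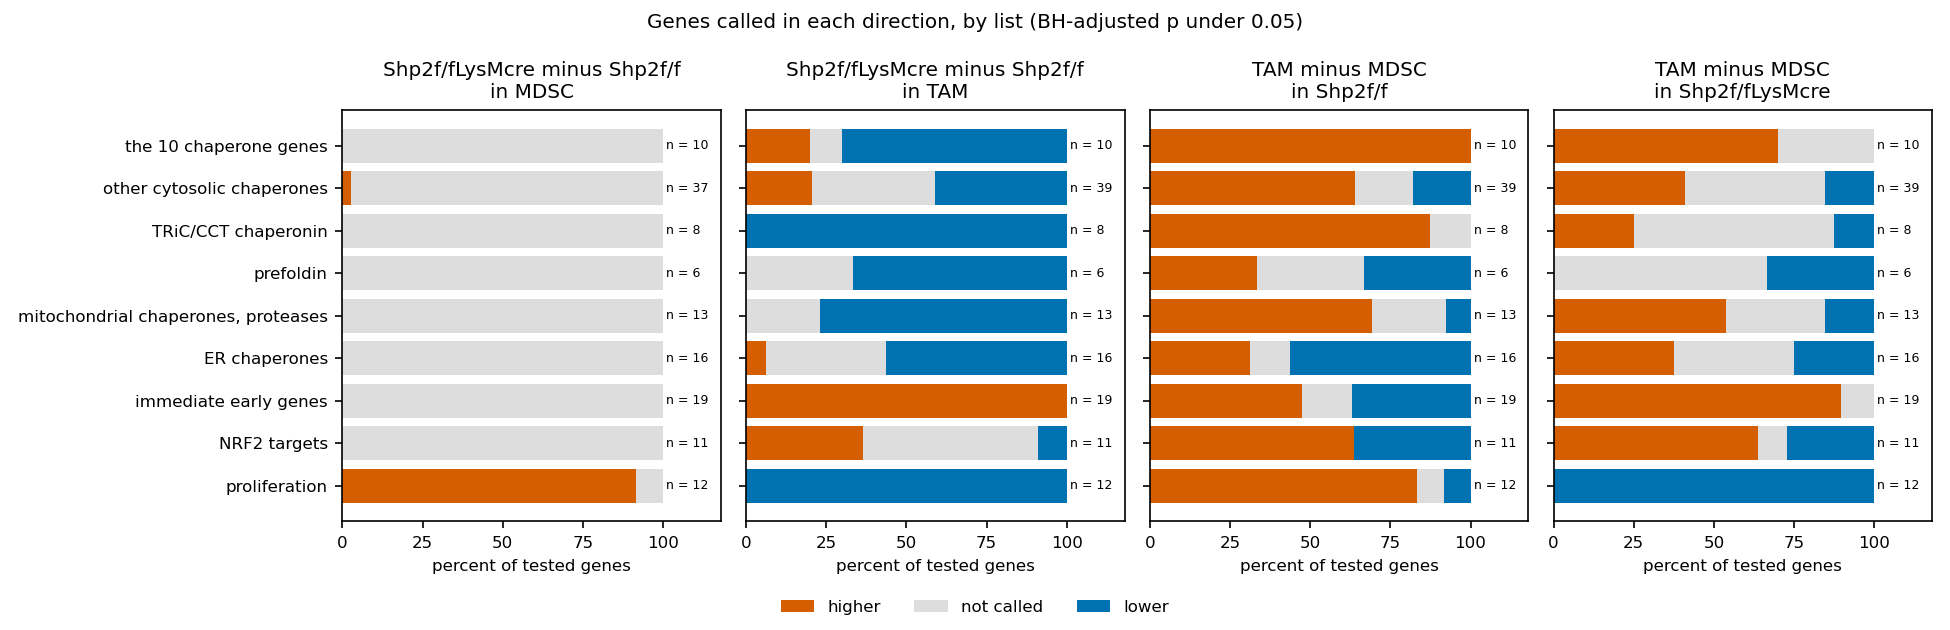
Share of the tested genes of each list called higher (orange), called lower (blue) or not called (grey) in the 4 comparisons, with the number tested at the right of each bar (edgeR QL adjusted p under 0.05). In TAM lacking SHP-2, all 8 TRiC/CCT and all 12 proliferation genes were lower and all 19 immediate early genes were higher, and in MDSC 11 of 12 proliferation genes were higher while the chaperone lists held 1 call. Of all tested genes, 23.9% were called higher and 26.3% lower between the TAM genotypes, and 3.76% and 0.520% between the MDSC genotypes.

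The genes most like Hspa1a were found by the correlation of log2 CPM centred within each cell type over the 10 libraries, among 8847 genes averaging 10 CPM or more. They were Pld3, which encodes a lysosomal nuclease (r = 0.994), Arg1, which encodes arginase (r = 0.992), the cytokine gene Osm (r = 0.992), Dhrs3, which encodes a retinal reductase (r = 0.991), and Pnrc1, a nuclear receptor coactivator gene (r = 0.991). The 10 points share their libraries and scaling, and the likeness rests mostly on the step between the TAM genotypes. Osm was at 372 ± 7.48 CPM in TAM Shp2f/f and 554 ± 27.0 CPM in TAM Shp2f/fLysMcre, and Arg1 was at 385 ± 9.55 and 826 ± 30.0 CPM (SD, n = 3 each), while Arg1 was at 0.188 and 0.218 CPM in the MDSC genotypes. Among the other 9 chaperone genes, Hspa1b was the nearest at rank 93 (r = 0.962), Dnajb1 followed at 0.534, and the remaining 7 lay between -0.755 for Hspe1 and -0.928 for Hspd1.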

How the data were processed

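The authors trimmed 42-base paired-end reads of poly(A)-selected stranded libraries (cutadapt 2.5), aligned them to GRCm38 (STAR 2.7.3a) and counted them per Ensembl gene with featureCounts (Subread 1.6.2). Raw counts as deposited by the authors, not normalized, were the start of every test. Their normalized table was not used. Strand and multi-mapping settings were not stated.

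The members and all gene lists were chosen with earlier results of these data known. GENCODE names matched 99.67% of identifiers. Genes kept by filterByExpr (minimum count 10) were scaled by TMM and tested with the quasi-likelihood F test of edgeR 4.0.16 in R 4.3.3, with Benjamini-Hochberg adjustment over all genes tested and a call at an adjusted p under 0.05. Each comparison was fitted on its own libraries, and the difference of genotype effects on all 10, taken as independent. The procedure was tested on simulated data. Named genes were the 10 members, up to 3 called genes of each other list per comparison with the largest change at a mean of 10 CPM or more, the tested heat shock factor genes, the 5 genes most like Hspa1a and Ptpn11; 2 further genes are marked as named after their values were seen. Shared 42-base windows were sought in GENCODE transcripts in place of the genome, and promoters came from RefSeq (GRCm38.p6). Alternatives were DESeq2 1.42.0 tests and size factors, total count scaling, other filters, a threshold of 0.01, a replicate block, 1 fit of all libraries, the HSP70 pair summed, each library left out and, added after seeing the data, limma 3.58.1 voom with weights per cell type.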

Additional observations from a re-analysis of the deposited data

Results flagged for a closer look

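For 6 of the 10 chaperone genes the interaction test separated the genotype effects of the cell types. Over all 16581 tested genes, 12.2% were called higher and 12.7% lower. The genotype effect was larger in TAM for Hspa1a, by 1.77 on the log2 scale, and for Hspa1b, by 1.01. It was lower in TAM by -0.48 for Hsp90aa1, -0.59 for Hsp90ab1, -0.75 for Hspd1 and -0.51 for Hspe1. The call of Hspe1 was lost in 9 of 10 fits with a library left out, with voom weights and at an adjusted p under 0.01. The genotype effect of Hspa1a in TAM was known when the genes were chosen, so these values are a description. Dixon's test for a library that stands apart was not applied, since no group held more than 3 libraries.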

How the results depend on the processing

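The smallest count of the 10 genes was 190, for Hspa1b in MDSC, where the relative counting error is therefore largest. How much of the spread is counting error was not tested. Between TAM and MDSC of Shp2f/f mice all 10 genes kept their call and direction under every alternative (9 of 9 with the HSP70 pair summed). In Shp2f/fLysMcre mice the number of the 10 genes called between TAM and MDSC fell from 7 to 4 with total count scaling, with the replicate block, with voom weights and at an adjusted p under 0.01. In that comparison total count scaling turned Dnajb1 to -0.11 and Dnaja1 to -0.035, and Hspe1 turned to 0.0093 without a filter and to 0.0064 with the block. In the interaction total count scaling called 10 of the 10 genes in place of 6, and voom weights and an adjusted p under 0.01 called 5, without Hspe1. Over all genes, total count scaling called 4366 of 16581 in the interaction, 71.7% of them lower. In MDSC, 1 of the 10 genes (Dnajb1) was called in 1 fit of all libraries, Hspe1 turned to 0.039 with total count scaling and to 0.0062 with a filter at 1 CPM, and Dnaja1 turned to -0.011 without a filter.

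Calls among the 39 other chaperones in MDSC were 1, against 2 with DESeq2, 0 with total count scaling, without a filter and at an adjusted p under 0.01, and 5 with the replicate block and in 1 fit of all libraries. In TAM they were 24, against 15 in 1 fit. Between the cell types in Shp2f/fLysMcre they were 22, against 13 with the block. In the interaction they were 13, against 8 with the block and 4 with voom weights and at 0.01.

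Leaving out each library in turn gave 4 to 8 calls of the 10 genes between the cell types in Shp2f/fLysMcre, and without TAM Shp2f/fLysMcre 1 or 2 it was 4. It gave 4 to 7 in the interaction (4 without MDSC Shp2f/f 2), 9 to 10 between the TAM genotypes and 0 to 0 in MDSC. For the other 39 the ranges were 0 to 8 in MDSC (8 without MDSC Shp2f/fLysMcre 1, 3 without MDSC Shp2f/fLysMcre 2 and 0 without either MDSC Shp2f/f library), 16 to 29 between the cell types in Shp2f/fLysMcre and 4 to 19 in the interaction (4 without either MDSC Shp2f/f library and 5 to 8 without TAM Shp2f/f 1, 2 or 3 or TAM Shp2f/fLysMcre 1 or 2). Log2 fold changes in MDSC ranged from -0.26 to 0.46 for Hspa1a, -0.049 to 0.031 for Dnaja1, -0.027 to 0.23 for Hsp90aa1 and -0.21 to 0.13 for Hspe1, and that of Hspe1 between the cell types in Shp2f/fLysMcre from -0.22 to 0.14. The cause of these changes was not tested.

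Whether the replicate numbers pair the libraries was not settled. The deviations of same-numbered libraries from their group means correlated at 0.35 between the MDSC genotypes and at -0.16 to 0.05 between the TAM genotypes. In MDSC the 2 pairs mirror each other and give the same value, which cannot decide on pairing. Between the cell types of a genotype the correlations were -0.11 to 0.06. With the block, calls over all genes between the MDSC genotypes rose from 633 to 2674. Apart from the cell types in Shp2f/fLysMcre, the block changed the calls of the 10 genes in no comparison.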
